A study of Drosophila melanogaster with 2 samples.

Results

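The tetraspanin genes of Drosophila melanogaster were taken as the protein-coding genes in the Ensembl annotation of the dm6 build whose symbol is Tsp followed by a cytological position. The rule found 34 genes among 13945 on 6 chromosome arms. Of these, 17 lie close together in band 42E, in a span that holds 24 protein-coding genes. The other 17 lie elsewhere, as single genes or, for Tsp29Fa and Tsp29Fb, as neighbours. The gene lbm (late bloomer) also encodes a tetraspanin in band 42E, but its symbol does not follow the rule, so it is reported beside the family and not counted in it. The data are ChIP-seq peak lists for kay, the single fly Fos protein. Chromatin came from whole embryos, aged 0 to 24 hours and of both sexes, of a transgenic line that makes kay with GFP at its C-terminus, and the tagged protein was precipitated with an anti-GFP antibody. The labels name the strain kay-GFP, with an insertion targeting D. melanogaster kay. There was 1 group with 2 libraries, biological replicates 2 and 4 by their labels, so no condition was compared with another. Candidate regions were called in each library against 1 control file. The lists carry no read counts, which leaves the depth of each library unknown, and the sequence that drives the transgene was not given in the labels used here. In whole embryos, weak binding in many cells and strong binding in a few cannot be told apart.

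Tetraspanins are small membrane proteins that pass through the membrane several times and gather partner proteins, such as integrins and membrane proteases, into patches. Tsp2A is needed with mesh and Ssk to build the smooth septate junctions of the midgut. Tsp3A, Tsp26A and Tsp86D belong to the group that helps the ADAM10 protease kuz reach the cell surface, where it cuts Notch. Tsp42Ej (sunglasses) acts in the breakdown of rhodopsin in photoreceptors, and lbm acts where motor axons contact muscle. Fos pairs with Jun as AP-1, which binds TGACTCA and its reverse complement TGAGTCA.

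A gene was called bound when the summit of an IDR peak lay within the gene or within 1 kb of one of its transcription start sites (TSSs). IDR peaks are the 3860 regions retained by the authors' filter on the irreproducible discovery rate (IDR). They are also the 3860 strongest of the 30000 candidates in the list made from both replicates together, called pooled here. Signals are values of the authors' peak caller, and ranks run from 1, the strongest, within each list. By this rule 11 of the 34 tetraspanin genes were bound (32.4%, exact binomial 95% interval 17.4 to 50.5%), against 3366 of 13945 protein-coding genes (24.1%). The interval covers counting error only, and genes that share a peak are not independent. It contains the share of all genes. The bound genes were Tsp42Ef, Tsp42Eg, Tsp42El, Tsp42En, Tsp42Eq and Tsp42Er in band 42E, and Tsp2A, Tsp3A, Tsp5D, Tsp39D and Tsp96F elsewhere.

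Sequence around the summits is shown first for 4 bound genes outside band 42E, as the 101 bases from 50 before to 50 after the summit, so that the letters in which each motif was searched can be read. No AP-1 site, TGACGTCA, TATCGATA or GAGAGAG occurs in these 4 windows on either strand, so none carries capitals. The windows of Tsp5D (chrX:6075012-6075112, minus strand) and Tsp39D (chr2L:21344436-21344536, plus strand) lie between genes, just upstream of the gene's TSS. That of Tsp2A (chrX:1346400-1346500, plus strand) lies upstream of its TSS and inside an intron of MTPAP, which encodes a mitochondrial poly(A) polymerase. That of Tsp96F (chr3R:25879541-25879641, minus strand) lies in its own intron. Each is written 5′ to 3′ along its tetraspanin gene, from the Release 6 genome (dm6).
Tsp5D: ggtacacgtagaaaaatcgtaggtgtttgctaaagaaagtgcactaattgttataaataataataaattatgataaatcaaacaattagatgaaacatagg
Tsp39D: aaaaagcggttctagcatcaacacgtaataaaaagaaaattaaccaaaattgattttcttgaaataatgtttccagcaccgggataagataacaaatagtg
Tsp2A: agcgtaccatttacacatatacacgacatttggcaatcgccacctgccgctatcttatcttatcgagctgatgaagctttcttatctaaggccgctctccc
Tsp96F: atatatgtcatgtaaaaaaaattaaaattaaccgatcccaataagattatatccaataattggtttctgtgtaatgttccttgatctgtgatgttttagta

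AP-1 sites are shown for Tsp29Fa, the 1 tetraspanin gene outside band 42E whose best candidate held any, and for kuz, whose protease product partners with tetraspanins. Capitals mark the site, with 11 bases to either side, in dm6 and on the plus strand, along which both genes run. The first Tsp29Fa site (chr2L:8934231-8934259 with its flanks) lies in the 5' UTR, with its centre 6 bp from the summit. The second (chr2L:8934376-8934404) lies in an intron, 151 bp from the summit. The kuz site (chr2L:13549996-13550024) lies between genes, 129 bp from the kuz TSS.
Tsp29Fa, first site: tggcatatggaTGAGTCAtcgatcagata
Tsp29Fa, second site: cgctgcaaaaaTGAGTCAtatatttaggc
kuz: agtgaatacgaTGAGTCAttgtatcatct

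The strongest tetraspanin peaks were those of Tsp42El and Tsp42Ef in band 42E. The next in the band, that of Tsp42Eg (pooled signal 176.4), was close to those of Tsp5D (173.6) and Tsp3A (171.5) elsewhere. The 17 genes of 42E span 73.4 kb of arm 2R (6992676 to 7066113, dm6), with 14 on the plus strand and 3 on the minus strand. Of them 6 were bound (35.3%, interval 14.2 to 61.7%), through 5 different peaks, because Tsp42Eq and Tsp42Er share one. Among the 17 tetraspanin genes elsewhere 5 were bound (29.4%, interval 10.3 to 56%), each through its own peak. The 2 intervals overlap over most of their length, and neighbours in a cluster are not independent, so no difference between cluster and other genes is read from these counts.

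Tsp42El had the strongest peak of the family. Its pooled signal was 345.3 (rank 290), with a signal of 226.2 (rank 234) in replicate 2 and 124.8 (rank 437) in replicate 4. The peak covers 7045424 to 7045687 of 2R, and its summit lies between genes, 228 bp upstream of the TSS. Both replicates placed it far inside their own strongest 3860.

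Tsp42Ef followed with a pooled signal of 260.4 (rank 546), 156.0 (rank 554) in replicate 2 and 98.7 (rank 727) in replicate 4. Its peak, at 7025011 to 7025151, has its summit in the 5' UTR, 84 bp downstream of the TSS. It was the only IDR peak of the family with an AP-1 site, at 7025064 to 7025070, whose centre lies 27 bp from the summit.

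Next along the cluster, Tsp42Eg had a pooled signal of 176.4 (rank 1257), with 119.3 (rank 983) in replicate 2 and 63.6 (rank 1751) in replicate 4. Its summit lay 316 bp upstream of the TSS, between genes. The peak shared by Tsp42Eq and Tsp42Er had a pooled signal of 162.3 (rank 1496), with 69.2 (rank 2846) in replicate 2 and 84.7 (rank 1021) in replicate 4. These 2 genes diverge from each other, and the summit lies between them, 185 bp upstream of Tsp42Er and 645 bp upstream of Tsp42Eq. The weakest IDR peak of the cluster, 257 bp upstream of Tsp42En, had a pooled signal of 121.4 (rank 2558), with 62.7 (rank 3404) in replicate 2 and 55.2 (rank 2246) in replicate 4. The rank of the Tsp42Eq and Tsp42Er peak differed by a factor of 2.79 between the replicates, the largest factor among the 10 tetraspanin IDR peaks. The median factor was 1.57 over these 10 peaks and 1.46 over 3854 IDR peaks that overlap a candidate of each library.

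In the IDR list, the first bound gene of 42E was Tsp42Ef, which starts 32.3 kb into the span. The first 5 genes, Tsp42Ea to Tsp42Ee, had no IDR peak. By the strongest 3860 candidates of replicate 4 alone, Tsp42Ea (rank 2253) and Tsp42Ed (rank 3438) were bound. By those of replicate 2 neither was. A sixth IDR summit of the span belonged to no tetraspanin gene by the rule: it ranked 1976 (signal 139.3; ranks 1689 and 3283 in replicates 2 and 4) and lay 116 bp from a TSS of Pgant3, a glycosyltransferase gene, and 1721 bp downstream of the TSS of Tsp42Eq. With these 6, the span held 8.17 IDR summits per 100 kb, against 2.88 over the 6 arms. It also held 32.7 protein-coding genes per 100 kb, against 10.4 over the arms, and 61.3 candidate summits per 100 kb, against 22.4. IDR summits, candidates and genes were thus all denser in this span than over the arms.

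**Figure D1:**
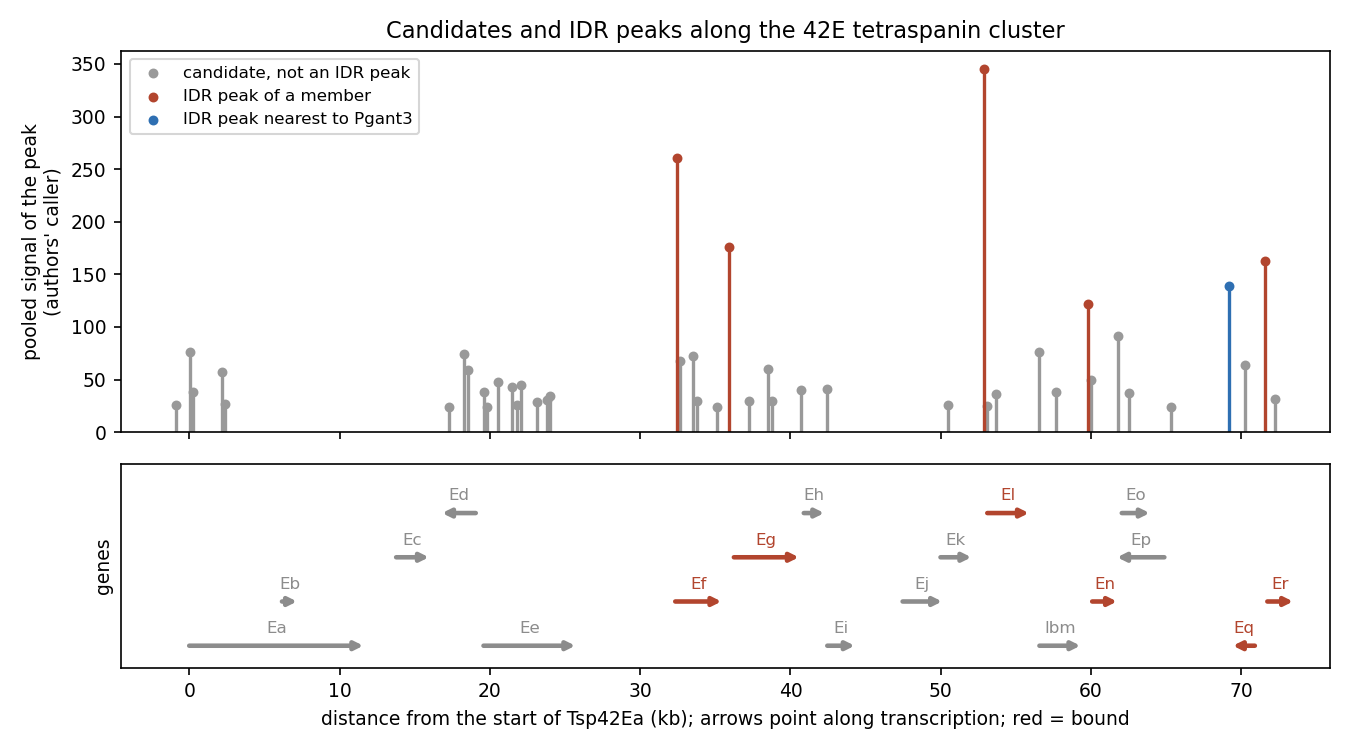
Pooled signal (authors' peak caller, vertical axis) of each peak assigned to a 42E tetraspanin gene or lbm, and of the Pgant3 peak, by distance in kb from the start of Tsp42Ea. Arrows below are genes in the direction of transcription, red where bound. The 5 red peaks have signals from 121.4 to 345.3 and lie beyond 32.3 kb, while the genes from Tsp42Ea to Tsp42Ee have grey candidates only.

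Several unbound genes of 42E had candidates that missed the IDR list. The best candidate of both Tsp42Eo and Tsp42Ep was 1 peak with a signal of 91.0 at rank 4029, just outside the list, with its summit in the 3' UTR of Tsp42Ep and 232 bp upstream of the TSS of Tsp42Eo. It had a signal of 58.6 at rank 3798 in replicate 2, within the strongest 3860 there, and of 32.5 at rank 5322 in replicate 4. Tsp42Ea had a candidate of rank 5219 (signal 76.6) 63 bp from its TSS and equally near to a TSS of CG30159. The replicates placed it far apart: it ranked 11592 in replicate 2 (signal 29.2) and 2253 in replicate 4 (signal 55.0). Tsp42Ed had a candidate of rank 5422 in its intron, with ranks of 4576 and 3438 in replicates 2 and 4.

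Tsp42Ee had 9 candidates, more than any other gene of the family, but the strongest ranked only 10517 (signal 47.8). The best candidates of Tsp42Ei (rank 13276), Tsp42Eh (rank 13920) and Tsp42Ek (rank 26394) were weaker still. The candidate of Tsp42Ei had no counterpart in replicate 2, and that of Tsp42Ek had none in replicate 4. The genes Tsp42Eb, Tsp42Ec and Tsp42Ej had no pooled candidate, and Tsp42Ej had only a candidate of rank 29315 in replicate 2. For lbm, the best candidate lay 10 bp upstream of a TSS with a pooled signal of 76 (rank 5271), 61.3 (rank 3510) in replicate 2 and 26.3 (rank 7438) in replicate 4, so that lbm was not bound.

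Outside 42E, Tsp5D and Tsp3A on the X chromosome had the strongest peaks. Tsp5D had a pooled signal of 173.6 (rank 1298), with 94.5 (rank 1603) in replicate 2 and 70 (rank 1475) in replicate 4. Its summit, 205 bp upstream of the TSS, lies in the first window printed above. Tsp3A, one of the partners of kuz, had a pooled signal of 171.5 (rank 1321), with 95.6 (rank 1570) in replicate 2 and 79.5 (rank 1157) in replicate 4. That summit lay in the 5' UTR of Seipin, a lipid droplet gene, 100 bp from a TSS of Seipin and 161 bp upstream of the TSS of Tsp3A, so the peak cannot be assigned to 1 of these 2 genes. The ranks of both peaks were close in the 2 replicates.

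Tsp96F was the 1 bound member whose summit lay over 1 kb from its own TSS. The peak (chr3R:25879363-25879818) had a pooled signal of 147.8 (rank 1771), with 76.3 (rank 2387) in replicate 2 and 70.1 (rank 1473) in replicate 4. It lay in an intron of Tsp96F, 1836 bp downstream of the TSS, and was the strongest of 7 candidates at the gene. Within 500 bp of the Tsp96F TSS the best candidate ranked 6946, 148 bp downstream.

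Tsp39D and Tsp2A had the weakest IDR peaks of the family and were each within the strongest 3860 of 1 replicate only. Tsp39D had a pooled signal of 111.2 (rank 2922), with 69.8 (rank 2792) in replicate 2 and 36.3 (rank 4508) in replicate 4. Its summit lay 121 bp upstream of the TSS. For Tsp2A, the smooth septate junction gene, the pooled signal was 106.0 (rank 3175), with 54.6 (rank 4261) in replicate 2 and 47.0 (rank 2970) in replicate 4. Its summit lay 103 bp upstream of the TSS. The weakest IDR peak in the whole list had a signal of 93.6.

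Of the 12 unbound genes outside 42E, 6 had a candidate. Tsp29Fb came nearest, at rank 4066 (signal 90.5), with a summit 247 bp upstream of its TSS and ranks of 4981 and 2932 in replicates 2 and 4. Its neighbour Tsp29Fa, with the 2 AP-1 sites printed above, had rank 4544 (signal 84.5), with 55.6 (rank 4138) in replicate 2 and 29.9 (rank 6069) in replicate 4. Tsp66E had 6 candidates in its long introns and 3' UTR, the best at rank 4790 and 13304 bp from its TSS, with the nearest TSS of any gene, that of CG43783, 10967 bp away. Tsp97E had rank 6365, with a summit 73 bp upstream of the TSS.

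The other kuz partners, Tsp26A and Tsp86D, had weak candidates at promoters of neighbouring genes. That of Tsp26A (rank 8527, signal 54.9) lay 6 bp from a TSS of Kdm5, which encodes a histone demethylase, and 733 bp upstream of Tsp26A, with ranks of 17607 and 7495 in replicates 2 and 4. That of Tsp86D (rank 17193, signal 34.6) lay 29 bp from a TSS of SelR, a methionine sulfoxide reductase gene, and 37 bp upstream of Tsp86D. It overlapped a candidate of rank 5042 in replicate 4 and none in replicate 2, where the best candidate of the gene ranked 11931. No candidate of either gene was thus near the IDR threshold in both replicates. No pooled candidate was found for Tsp33B, Tsp42A, Tsp47F, Tsp66A, Tsp68C or Tsp74F, and none in the list of either replicate.

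**Figure D2:**
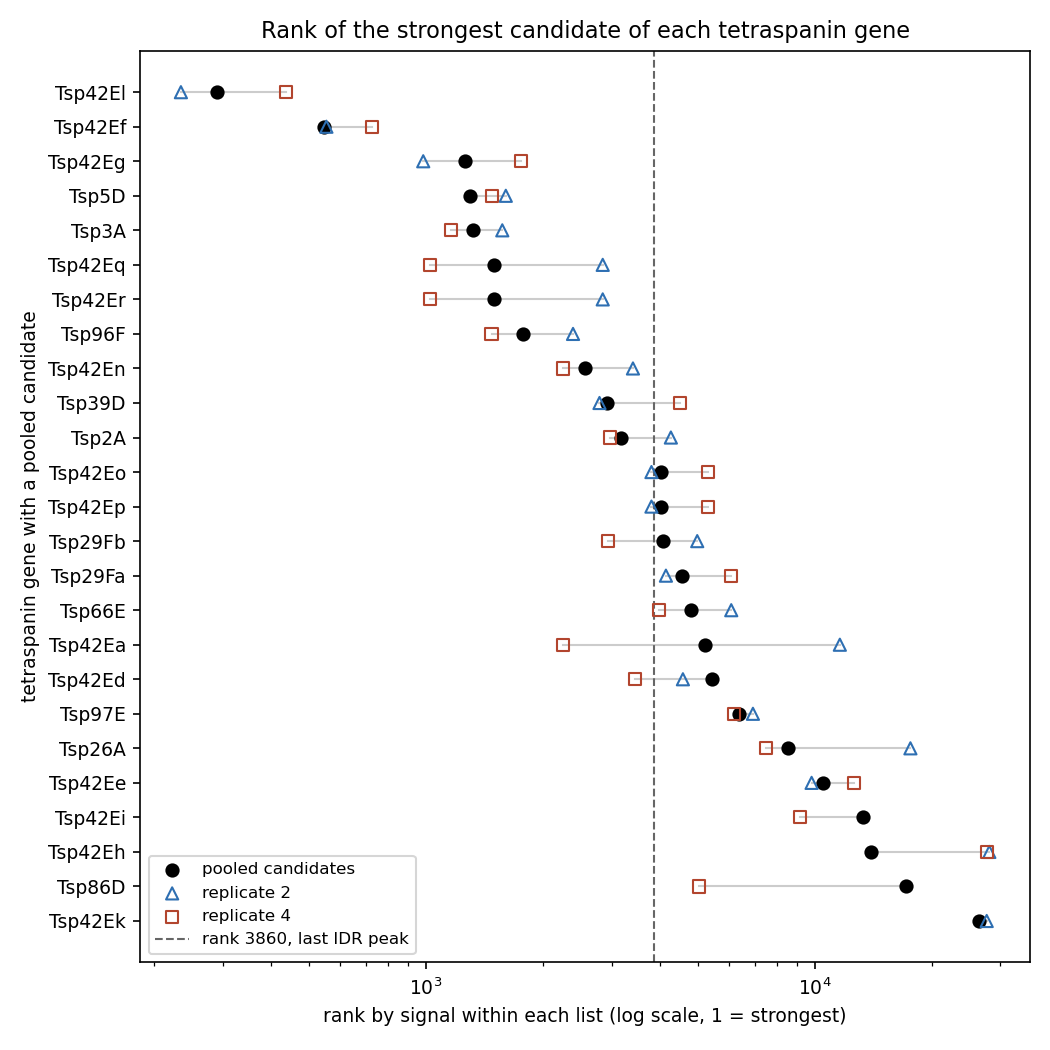
Rank by signal (log axis, 1 is strongest) of the best pooled candidate of the 25 tetraspanin genes that have one, with the strongest overlapping candidate of replicate 2 and of replicate 4; a missing symbol means no overlapping candidate. The dashed line marks rank 3860, and 9 genes have all 3 symbols to its left.

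In all, 25 of the 34 genes (73.5%) had a pooled candidate, against 63.3% of all protein-coding genes, and 11 of these 25 (44.0%) were bound, against 38.1% of the 8826 genes with a candidate. The median rank of the best candidate was 4029 over the 25 genes and 5794 over the 8826. Among bound genes alone the medians were 1496 for the tetraspanins and 1582 for all. The median length was 2211.5 bp for the 34 genes and 2166 bp for all genes. The tetraspanin genes held 73 different candidates, of which 10 (13.7%) were IDR peaks, and the share over all candidates assigned to genes was also 13.7%. These shares were near those of all genes.

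The replicates gave similar counts of bound genes, but equally many candidates were taken from each. Similar counts therefore do not show that they agree on the genes. By the strongest 3860 candidates of replicate 2, 12 of 34 genes were bound, against 23.8% of all genes. By those of replicate 4, 13 were bound, against 24.9% of all genes. The 2 lists shared 9 genes, namely the 6 bound genes of 42E with Tsp3A, Tsp5D and Tsp96F, and all 9 were also bound in the IDR list. Replicate 2 added Tsp39D, Tsp42Eo and Tsp42Ep to these 9, and replicate 4 added Tsp2A, Tsp29Fb, Tsp42Ea and Tsp42Ed. In the IDR peaks of the family, 4 of 10 ranked higher in replicate 2 and 6 in replicate 4.

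The bound tetraspanin genes had their peaks mainly at promoters, as had bound genes in general. The best summit lay within 500 bp of the gene's own TSS in 9 of 11 bound genes (81.8%), against 72.0% of all bound genes. It lay upstream of that TSS in 9 of 11, Tsp42Ef and Tsp96F being the others, against 72.3% of all bound genes. For 9 of 11 the nearest TSS was the gene's own, against 68.4%, the exceptions being Tsp3A and Tsp42Eq. With only 11 genes behind them, these shares are not told apart from those of all bound genes. Each of the 11 genes had a single IDR peak, as had 74.5% of all bound genes. With the gene body left out and summits within 1 kb of a TSS alone counted, 10 of 34 were bound, against 21.3% of all genes, and Tsp96F was the gene lost. With the stronger 1930 IDR peaks, 8 of 34 were bound, 5 in 42E and 3 elsewhere, against 14.4% of all genes. The genes lost were Tsp2A, Tsp39D and Tsp42En.

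**Figure D3:**
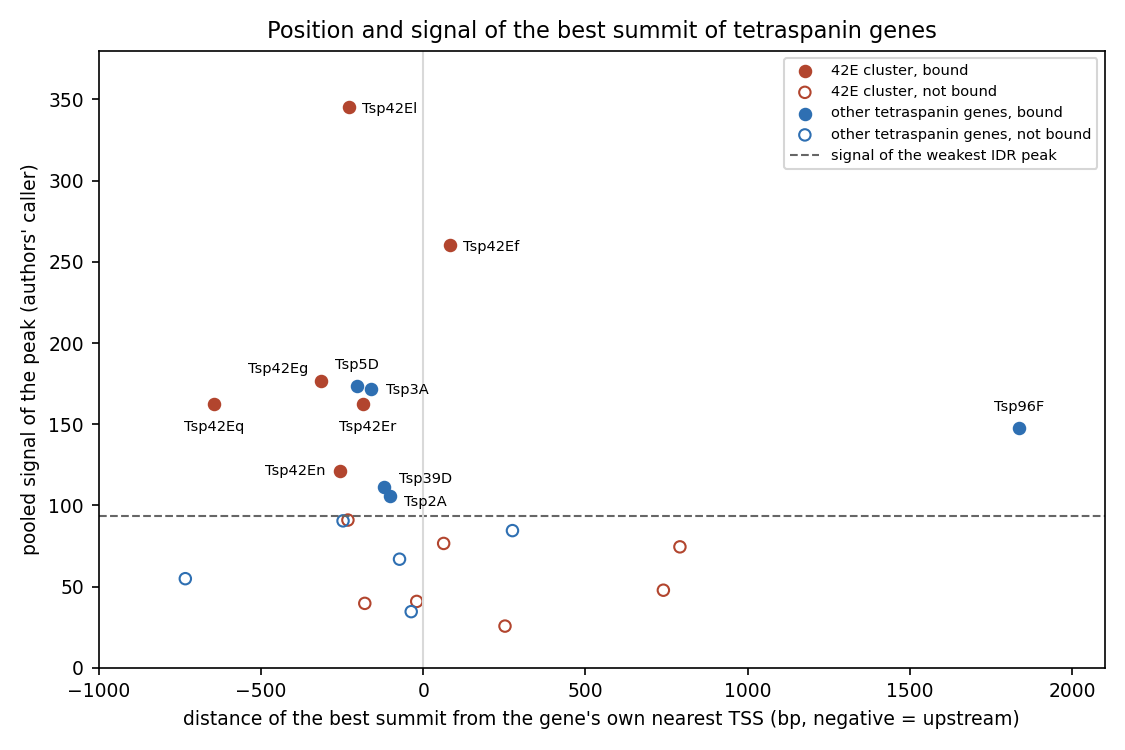
Pooled signal of the best candidate (authors' peak caller) against its distance in bp from the gene's own nearest TSS, for 23 tetraspanin genes; Tsp42Ep and Tsp66E lie beyond 2000 bp and are not drawn. Filled points are bound genes, which lie above the dashed line at 93.6, and 9 of the 11 lie upstream of the TSS.

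**Figure D4:**
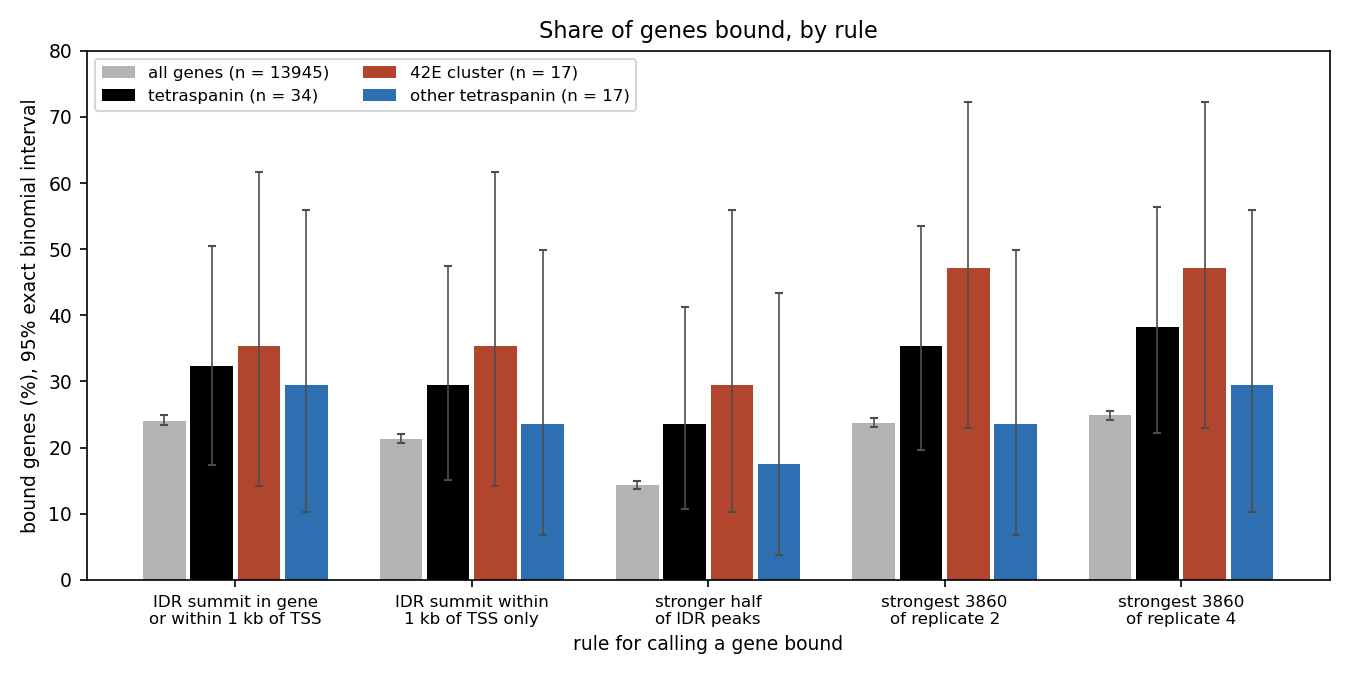
Percent of genes bound under 5 rules for all protein-coding genes, all 34 tetraspanin genes, the 17 of 42E and the 17 elsewhere, with exact binomial 95% intervals. Under each rule the intervals of the 2 tetraspanin groups overlap, and that of the 34 genes contains the share of all genes.

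The best summit had an AP-1 site within 50 bp in 2 of the 25 genes with a candidate (8.0%), Tsp42Ef and Tsp29Fa, against 3.05% of the 8826 genes with a candidate. Over the full width of the best peak the same 2 genes had a site, against 7.82%. The looser motif TGANTCA, which includes the AP-1 site, added Tsp42Ed within 50 bp, giving 3 of 25 genes (12.0%), against 5.53% of the 8826. With 2 or 3 genes behind them, these shares are not told apart from those of all genes. Of the 10 IDR peaks of the family, 1 had an AP-1 site within 50 bp, against 184 of 3860 IDR peaks (4.77%). Over the full peak, 3 of the 10 held TGANTCA, against 20.4% of IDR peaks. Of all 73 candidates of the family, 3 (4.11%) had an AP-1 site within 50 bp, against 2.5% of the 30000 pooled candidates. Over the full peak 10 of 73 (13.7%) had one, against 7.82%, and as candidates overlap, these 10 held 9 different sites. The 30000 also include candidates assigned to no gene, and overlapping candidates are not independent, so no difference is read from these shares. Of the 9 sites, only that of Tsp42Ef lay in an IDR peak. Besides the best candidate of Tsp29Fa, the strongest candidate outside the IDR list with a site ranked 7481, in Tsp42Eg. Another site was at Tsp2A, in a candidate of rank 11321.

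None of the 10 IDR peaks had the cAMP response element TGACGTCA, the DREF site TATCGATA or the GAGA repeat GAGAGAG within 50 bp of its summit on either strand. In the whole IDR list 0.337%, 1.79% and 2.15% of peaks had them there. Over the full peak width, Tsp39D had a TATCGATA and the peak of Tsp42Eq and Tsp42Er a GAGAGAG, found in 6.99% and 13.0% of IDR peaks. Outside the IDR list, the best candidate of Tsp97E held 2 TATCGATA matches. The GC content within 50 bp of the summit ran from 25.7% at Tsp96F to 54.5% at Tsp42Ef over the 10 peaks. Its median of 32.7% was near that of all IDR peaks, 34.7%.

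A list of 16 genes, called partner genes here, was drawn up by theme: smooth septate junctions, kuz and Notch, integrins, vesicle sorting, and the tetraspanin lbm. Their links to tetraspanins were not tested. Of the 16 genes, 10 were bound by the rule that gave 24.1% of all genes. These genes were listed with earlier results of these data known, so their counts are descriptions only. They are also long (median 6802.5 bp), and a gene body of greater length can hold more summits. By summits within 1 kb of a TSS, 7 of 16 were bound, against 21.3%. The strongest was the peak of kuz, 87 bp upstream of its TSS, with a pooled signal of 640.5 (rank 76), 346.9 (rank 85) in replicate 2 and 293.4 (rank 68) in replicate 4. Its AP-1 site, printed above, has its centre 42 bp from the summit. Its substrate N (Notch) had an intronic peak of rank 448, far from its TSS, while the Notch ligand gene Delta had only a candidate of rank 21128.

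Of the other partners, the genes mys (rank 581), scb (rank 1365), if (rank 1393) and mew (rank 1524) were bound, and Itgbn (rank 5354), ItgaPS4 (no candidate) and ItgaPS5 (rank 29233) were not. All encode integrins, receptors for the extracellular matrix. Among the smooth septate junction genes that act with Tsp2A, hoka (rank 2314) and mesh (rank 3451) were bound, and Ssk (rank 7793) was not. ALiX (rank 1273) and TSG101 (rank 1630), which act in the sorting of membrane proteins into vesicles, were both bound. An AP-1 site lay within 50 bp of the best summit of kuz, mys and ALiX, 3 of the 15 partner genes with a candidate. The share was 3.05% over all genes with a candidate and 4.77% over IDR peaks, to which these 3 summits belong. With 3 genes behind it, from a list written with earlier results of these data known, the partner count is a description only. The tetraspanin lbm, also on this list, was not bound.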

How the data were processed

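The authors deposited narrowPeak lists in dm6 and dm3, and only the dm6 lists were used. Per the labels, chromatin was sonicated to fragments of 200 to 800 bp. Per the file descriptions deposited with the samples, a candidate list was made from 1 replicate, or both together, and 1 control file, and the IDR list from the candidate lists. Peak caller and aligner were not given in the sources used here. The deposited signal of each peak has no stated scaling between libraries, so it was used for ranks and descriptions within a list. Summits (peak start plus offset) were assigned to genes of Ensembl release 115, and motifs searched in the RefSeq Release 6 genome, whose coordinates match dm6. Replicate values are those of the strongest candidate that overlaps the pooled peak. No tests were made, as there was 1 group. Every family member is named, as are listed partner genes and genes whose TSS is nearest to a member's best summit. In the partner list, Dl was matched as Delta, and sun was dropped because that symbol belongs to another gene and the tetraspanin once so called is Tsp42Ej. The members and lists were chosen with earlier results of these data known. The code was tested on simulated data. Intervals are exact (Clopper-Pearson). Python 3.11.15, numpy 2.4.6 and scipy 1.17.1 were used.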

Additional observations from a re-analysis of the deposited data

How the results depend on the processing

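The counts were recomputed under 7 other rules for calling a gene bound, with distinct peaks in place of genes, with lbm added, and with other motif settings; distinct peaks, lbm, the match of replicate summits within 100 bp and the restriction of AP-1 sites to IDR peaks were chosen after seeing the data. Of 36 alternatives, 33 gave a count within 1.5 times the reported one. With the stronger 1930 IDR peaks, the count of bound genes outside 42E was 3 in place of 5. The count of genes with an AP-1 site was 1 in place of 2, both for any IDR summit and for IDR peaks only, since the Tsp29Fa candidate is not an IDR peak. With 1 replicate alone, the family had 12 to 13 bound genes, 42E had 8 with either, the other genes had 4 to 5, and the partner list 10 with either. These counts can hide a change of genes: in replicate 2, lbm (rank 3510) was among the 10 partners and mesh (rank 4198) was not. No paired analysis was possible because both samples belong to 1 group. The lists give no read counts, so depth sets no limit that can be stated.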

Other observations

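The printed Tsp2A window holds 3 copies of GATAAG, counting both strands, a sequence that GATA factors bind. The first and second copies overlap by a base, so they are not separate sites. This motif was chosen after the windows were read, so the count is a description. At least 3 copies occurred in 3 of the 3860 windows of the same length from IDR peaks (0.0777%), that of Tsp2A included. For windows from all candidates the share was 0.0267%. At least 1 copy occurred in 6.06% of the windows from IDR peaks and in 6.19% of those from all candidates. Of the other 9 IDR peaks of the family, those of Tsp39D and Tsp42Eg held 1 copy each and the rest none.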
